A study of Mus musculus with 6 samples.

Results

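The data cover 10 genes of the glutathione S-transferase family, taken by gene symbol (Gsta3, Gsta4, Gstm1, Gstm2, Gstp1, Gstp2, Gstt1, Gsto1, Mgst1 and Mgst3) from a table of 39179 genes. RNA sequencing was done on sorted endothelial cells of mouse liver. In the high_iron group, wild-type 129S6/SvEvTac males ate the purified AIN-93G diet with 10000 ppm carbonyl iron, and in the control_iron group males of the same strain ate it with 37 ppm iron as ferric citrate. Both diets ran for 4 weeks from 3 weeks of age, cells were sorted at 7 weeks, and each group had 3 libraries, called biological replicates by the submitters. All mice carried the wild-type genotype, and whether a library came from 1 animal or from pooled animals is not stated in the labels. The sort kept CD31+ and CD146+ cells and removed cells with CD45, lineage markers, MHC class II or CD64.

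Glutathione S-transferases join the tripeptide glutathione to reactive, electron-poor molecules, such as quinones, epoxides and the aldehydes left by oxidised lipids, so that these can be exported from the cell. The soluble enzymes fall into classes named by Greek letters (alpha, mu, pi, theta, omega), while the microsomal enzymes sit in membranes and can also reduce lipid peroxides. Several of these genes are known targets of NRF2, the transcription factor of the electrophile response, and many are abundant in hepatocytes.

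Libraries held 12963510 to 19265165 reads in genes in the high_iron group and 18008668 to 21663543 in the control_iron group. Levels are CPM, a gene's reads over a scaled library size, as deposited; 3 reads correspond to 0.139 to 0.231 CPM. Of the 10 genes, 9 passed the filter of at least 1 CPM in at least 3 of the 6 libraries, and Gstp2 did not. Genes of the labelled cell type were abundant: Stab1, a scavenger receptor of sinusoidal endothelium, was at 4182 ± 285 CPM in high_iron and 3678 ± 238 CPM in control_iron libraries, and Pecam1, which encodes CD31, at 606 ± 49.5 CPM in high_iron and 686 ± 51.5 CPM in control_iron libraries (SD, n = 3 each). Mcam, which encodes the CD146 used in the sort, was low, at 8.85 ± 2.26 CPM in high_iron and 18.4 ± 8.46 CPM in control_iron libraries.

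Iron loading went with more transcript from 3 of the 9 tested genes, and none fell. Gstp1 of the pi class, Gstm1 of the mu class and the microsomal Mgst1 rose 4.84-fold, 3.21-fold and 2.49-fold. In the same fit, 0.832% of the 12980 genes tested rose and 0.193% fell, at an adjusted p under 0.05. Over the 9 tested members the median log2 fold change was 0.58, against -0.0034 over all genes tested, and 6 were positive and 3 negative. For 4 of the 9 (Gstp1, Gstm1, Gstm2 and Mgst1) every high_iron library lay above every control_iron library, as it did for 9.46% of all genes tested; none of the 9 showed the opposite separation, which 8.44% of genes tested did (17.9% either way). Fold changes are of CPM + 1, which understates changes at low levels. Limma was the test, with p adjusted by Benjamini-Hochberg over the 12980 genes. With edgeR, which called 0.863% of the same genes, Gstp1 and Gstm1 rose and Mgst1 missed the threshold; with DESeq2, which called 3.27%, all 3 rose. In bulk libraries, fewer cells of a type and less RNA per cell cannot be told apart.

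**Figure D1:**
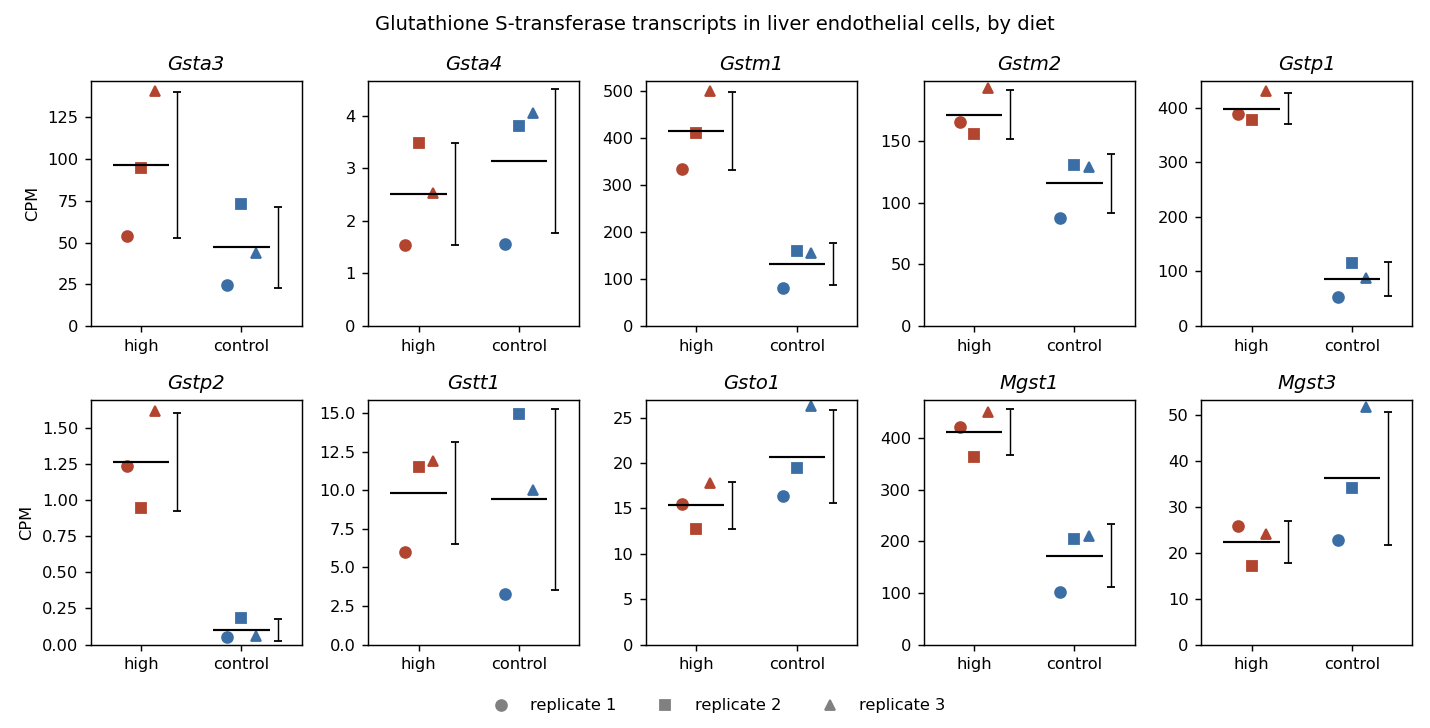
CPM of each gene in every library, high_iron (red) left of control_iron (blue); symbols mark the replicate number, the line the mean and the bar beside it the SD (n = 3), and each panel has its own axis. Gstp1, Gstm1, Gstm2, Gstp2 and Mgst1 show no overlap between the groups, while Gsta3, Gsta4, Gstt1, Gsto1 and Mgst3 overlap.

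Gstp1 of the pi class showed the largest change among the tested genes of the family. Gstp1, whose enzyme conjugates a broad range of electrophiles and can attach glutathione to protein thiols, was at 389, 378 and 431 CPM in high_iron replicates 1 to 3, against 53.5, 116 and 87.3 CPM in control_iron replicates 1 to 3. The groups did not overlap, and the lowest high_iron library was over the highest control_iron library by a wide margin. Means were 399 ± 27.9 CPM in high_iron and 85.5 ± 31.2 CPM in control_iron libraries (SD, n = 3 each). The log2 fold change was 2.28 ± 0.24 (± SE), with an adjusted p of 0.0024 by limma, and the gene passed the threshold under every one of the 19 alternative settings tried. Gstp1 (ENSMUSG00000060803) occupies bases 4035407 to 4037985 of chromosome 19 (GRCm38, mm10; minus strand), in 5 merged exons.

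Gstp2 (ENSMUSG00000038155) lies beside it on the same strand, from 4040285 to 4046023, with 2299 bases between both genes. It was barely read: 24, 16 and 21 reads in high_iron replicates 1 to 3, against 1, 4 and 1 reads in control_iron replicates 1 to 3. Its level was 1.26 ± 0.337 CPM in high_iron and 0.0982 ± 0.0758 CPM in control_iron libraries (SD, n = 3 each). Every high_iron library again lay above every control_iron library. The ratio of the summed reads, 61 in high_iron and 6 in control_iron libraries, was 12.0 after scaling, with an exact 95% interval of 5.20 to 34.0 that covers counting error only. Gstp2 failed the filter, so it was not tested in the main analysis. With no filter its adjusted p was 0.053 by limma (log2 fold change 1.03 of CPM + 1), 0.0027 by edgeR and 0.0073 by DESeq2; both of these last fits were added after seeing the data, so that Gstp2 could be tested.

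The coding sequences of the pair have 630 bases each in GENCODE M21 and differ at 12 of them (98.1% identity), with a longest identical run of 300 bases. Over the transcript, 86.1% of Gstp1 matched Gstp2 at 98.2% identity, and 76.9% matched the pseudogene Gstp-ps at 97.6% identity, which is not analysed here. Reads inside the identical stretches cannot be told apart, so the split of reads between Gstp1 and Gstp2 is uncertain. Gstp2 held 0.249% to 0.374% of the reads of the pair in high_iron libraries and 0.0652% to 0.160% in control_iron libraries. With the pair merged into 1 row before the fit, the log2 fold change was 2.28 with an adjusted p of 0.0024 by limma. The first 120 coding bases hold 6 of the 12 differences and are shown because reads over these bases can separate the pair. Capitals mark the differing bases.
Gstp1: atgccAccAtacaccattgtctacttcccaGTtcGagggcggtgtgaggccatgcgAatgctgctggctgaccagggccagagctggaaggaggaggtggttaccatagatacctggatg
Gstp2: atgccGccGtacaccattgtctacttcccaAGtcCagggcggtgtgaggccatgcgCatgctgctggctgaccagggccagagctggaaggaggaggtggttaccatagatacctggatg

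In the mu class, Gstm1 rose and Gstm2 did not pass the threshold. Both enzymes conjugate epoxides and quinones. Gstm1 was at 335, 411 and 501 CPM in high_iron replicates 1 to 3, against 81.6, 159.7 and 157 CPM in control_iron replicates 1 to 3. The groups did not overlap, and control_iron replicate 1 was the lowest library. Means were 416 ± 83.3 CPM in high_iron and 133 ± 44.2 CPM in control_iron libraries (SD, n = 3 each). The log2 fold change was 1.68 ± 0.26 (± SE; adjusted p = 0.021 by limma). The call was lost without high_iron replicate 2 (adjusted p = 0.085 by limma), without high_iron replicate 3 (0.13), with no filter (0.079) and without the intensity trend (0.055).

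Gstm2 was at 165, 156 and 193 CPM in high_iron replicates 1 to 3, against 87.8, 131 and 129 CPM in control_iron replicates 1 to 3. The groups did not overlap either, but the gap was narrow. The log2 fold change was 0.58 ± 0.18 (± SE; adjusted p = 0.21 by limma). Gstm1 (ENSMUSG00000058135, 108012255 to 108017973) and Gstm2 (ENSMUSG00000040562, 107981702 to 107986453) lie on the minus strand of chromosome 3, with 25801 bases between them. The best match of the Gstm2 transcript to Gstm1 had 87.1% identity, below the 95% taken here as near-identical. A pseudogene, Gstm2-ps1, matched 43.6% of the Gstm1 transcript at 97.5% identity.

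Among the microsomal enzymes, which belong to a separate family of membrane proteins, Mgst1 rose and Mgst3 did not pass the threshold. Mgst1 conjugates electrophiles and reduces lipid hydroperoxides. It was at 423, 363 and 452 CPM in high_iron replicates 1 to 3, against 102, 205 and 211 CPM in control_iron replicates 1 to 3. The groups did not overlap, with control_iron replicate 1 well below the other two. Means were 413 ± 45.0 CPM in high_iron and 173 ± 61.1 CPM in control_iron libraries (SD, n = 3 each). The log2 fold change of Mgst1 (ENSMUSG00000008540; chromosome 6, 138140316 to 138156755, plus strand) was 1.32 ± 0.25 (± SE; adjusted p = 0.045 by limma). This call sat at the threshold: adjusted p by limma was 0.13 without high_iron replicate 1, 0.13 without high_iron replicate 2, 0.22 without high_iron replicate 3, and 0.069 without control_iron replicate 2 or 3. It was 0.012 without control_iron replicate 1, and the call was lost in 9 of the 19 alternatives in all.

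Mgst3, a membrane enzyme with glutathione transferase and peroxidase activity, was at 25.9, 17.2 and 24.1 CPM in high_iron replicates 1 to 3. Control_iron replicates 1 to 3 were at 22.7, 34.2 and 51.7 CPM. The groups overlapped, since control_iron replicate 1 lay within the high_iron range. The log2 fold change of Mgst3 (ENSMUSG00000026688; chromosome 1, 167371966 to 167393841, minus strand) was -0.61 ± 0.28 (± SE; adjusted p = 0.42 by limma).

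The alpha class did not pass the threshold. Gsta3, which in mouse protects against the epoxide of aflatoxin, was at 53.8, 94.9 and 141 CPM in high_iron replicates 1 to 3, against 24.5, 73.1 and 43.5 CPM in control_iron replicates 1 to 3. The groups overlapped, and the libraries of each group were spread widely. Its log2 fold change was 1.05 ± 0.40 (± SE; adjusted p = 0.34 by limma) and ran from 0.66 without control_iron replicate 1 to 1.43 without control_iron replicate 2. Gsta3 (ENSMUSG00000025934) occupies bases 21240589 to 21265661 of chromosome 1 (plus strand). Gsta4, which acts on the lipid aldehyde 4-hydroxynonenal, was scarce, at 1.54, 3.48 and 2.54 CPM in high_iron replicates 1 to 3, against 1.56, 3.81 and 4.04 CPM in control_iron replicates 1 to 3. The groups overlapped, and the log2 fold change of Gsta4 (ENSMUSG00000032348; chromosome 9, 78182774 to 78209349, plus strand) was -0.21 ± 0.33 (± SE; adjusted p = 0.82 by limma).

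The theta and omega classes did not pass either. Gstt1, a theta enzyme that acts on small halogenated compounds, was at 6.01, 11.5 and 11.9 CPM in high_iron replicates 1 to 3, against 3.27, 14.95 and 10.02 CPM in control_iron replicates 1 to 3. The groups overlapped over nearly their whole range, with a log2 fold change of 0.20 ± 0.45 (± SE; adjusted p = 0.88 by limma). Gsto1, an omega enzyme that reduces disulfides and dehydroascorbate, was at 15.5, 12.7 and 17.8 CPM in high_iron replicates 1 to 3. Control_iron replicates 1 to 3 were at 16.4, 19.4 and 26.3 CPM. Again the groups overlapped, and the log2 fold change was -0.40 ± 0.22 (± SE; adjusted p = 0.49 by limma). Gstt1 (ENSMUSG00000001663) occupies bases 75783813 to 75798584 of chromosome 10 (minus strand), and Gsto1 (ENSMUSG00000025068) bases 47854970 to 47864790 of chromosome 19 (plus strand).

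Compared per length, the order of the genes depended on the gene lengths used. With RPKM as deposited, Gstp1 had the highest level of the 10 genes in all 6 libraries. With the merged exon lengths of GENCODE M21 in place of the deposited lengths, an alternative added after seeing the data, Gstm1 was highest in 5 of the 6 libraries, and Gstp1 was highest in high_iron replicate 1, the second in high_iron replicates 2 and 3 and the fourth in the 3 control_iron libraries. The length of Gstp1 is 737 bases as deposited and 1548 as merged exons, and that of Gsta3 1435 and 4344. In high_iron libraries the order of mean RPKM, with the deposited lengths, was Gstp1 at 541 ± 37.8, Gstm1 at 234 ± 47.0, Mgst1 at 198 ± 21.6, Gstm2 at 92.0 ± 10.5 and Gsta3 at 67.3 ± 30.3 (SD, n = 3 each). Mgst3 at 20.5 ± 4.20, Gsto1 at 7.66 ± 1.29, Gstt1 at 5.54 ± 1.86, Gsta4 at 2.65 ± 1.02 and Gstp2 at 2.02 ± 0.538 RPKM followed. The library ranges of Gstm1 and Mgst1 overlapped, as did those of Gstm2 and Gsta3 and of each neighbouring pair from Gsto1 down to Gstp2. In control_iron libraries the upper order was Gstp1 at 116 ± 42.3, Mgst1 at 82.9 ± 29.3, Gstm1 at 74.8 ± 25.0, Gstm2 at 62.1 ± 12.9, Mgst3 at 33.2 ± 13.4 and Gsta3 at 32.8 ± 17.1 RPKM. Every neighbouring pair of these 6 genes overlapped.

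The summed RPKM of the 10 genes was 1084, 1102 and 1329 in high_iron replicates 1 to 3, against 264, 520.2 and 478 in control_iron replicates 1 to 3. Gstp1 made up 44.0% to 48.7% of this sum in high_iron libraries and 24.8% to 30.2% in control_iron libraries; with the merged exon lengths its share was 26.9% to 30.01% in high_iron and 13.3% to 17.3% in control_iron libraries. The share of Gstm1 was 17.4% to 21.3% in high_iron and 17.3% to 18.5% in control_iron libraries with the deposited lengths, and 27.2% to 32.96% in high_iron and 23.997% to 25.1% in control_iron libraries with the merged exon lengths. The share of Mgst3 was 1.43% to 2.19% in high_iron and 6.03% to 9.92% in control_iron libraries with the deposited lengths, and 1.84% to 2.82% in high_iron and 7.20% to 11.1% in control_iron libraries with the merged exon lengths. With either set of lengths the share of Gstp1 was higher, and that of Mgst3 lower, in every high_iron library than in every control_iron library. No test was made of the sums or shares.

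**Figure D2:**
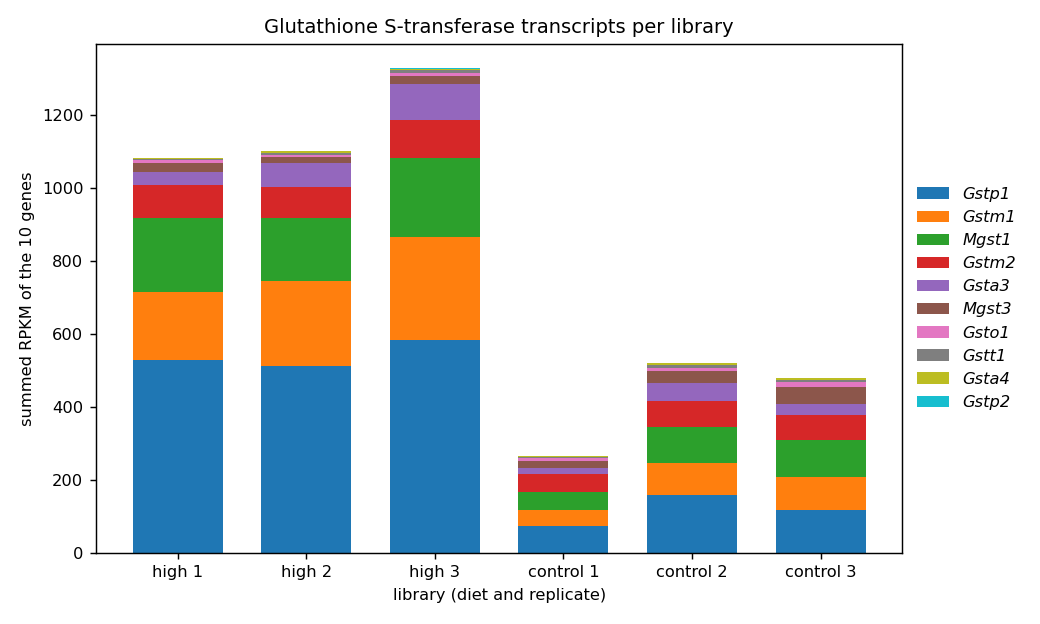
Summed RPKM (deposited gene lengths) of the 10 genes in each library (stacked bars from 0, high_iron replicates left of control_iron replicates), colours standing for genes in the order of their mean level in high_iron libraries. High_iron bars reach 1084 to 1329 RPKM and control_iron bars 264 to 520.2 RPKM, and the Gstp1 part at the base of each bar takes 44.0% to 48.7% of it in high_iron and 24.8% to 30.2% in control_iron libraries; with merged exon lengths it would take 26.9% to 30.01% in high_iron and 13.3% to 17.3% in control_iron libraries.

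Control_iron replicate 1 was the lowest control_iron library for all 10 genes, and it was the lowest for 36.3% of the 12980 genes tested. The summed levels of hepatocyte genes, at 427 CPM, macrophage genes, at 79.4 CPM, and stellate cell genes, at 140 CPM, were also lowest in that library. Its erythroid sum, at 1164 CPM, was the lowest of the control_iron group. Its endothelial sum, at 24591 CPM, lay between those of the other control_iron libraries, and its cholangiocyte sum, at 5.77 CPM, was the highest of that group. High_iron replicate 3 was the highest high_iron library for 8 of the 10, and for 30.5% of genes tested. Without control_iron replicate 1, the log2 fold changes of Gstp1, Gstm1 and Mgst1 by limma were 1.98, 1.37 and 0.98. With all libraries they were 2.28, 1.68 and 1.32. Adjusted p by limma without that library was 3.5e-04, 0.0049 and 0.012. Leaving out the lowest control library cannot undo a separation of the groups, and it narrows the control_iron spread of these genes. This fit therefore cannot show whether the separation depends on that library.

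Markers of other liver cells were present and differed between libraries. Of 19 tested hepatocyte genes, 18 were higher in the high_iron mean of log2 values and 1 lower (median log2 fold change 0.62). None passed by limma or edgeR and 3 did by DESeq2, which called 3.27% of all genes tested. By limma, 6 had an unadjusted p under 0.05, as had 12.1% of all 12980 genes tested. For 4 of the 19, the 3 called by DESeq2 among them, every high_iron library lay above every control_iron library. This held for 9.46% of all genes tested. None of the 19 showed the opposite separation. Albumin (Alb) was at 227 ± 38.0 CPM in high_iron and 175 ± 104 CPM in control_iron libraries (SD, n = 3 each). The summed hepatocyte level was 928, 1729 and 1494 CPM in high_iron replicates 1 to 3 and 427, 1746 and 995 CPM in control_iron replicates 1 to 3, so the groups overlapped. Control_iron replicate 2 held the highest sum of the 6 libraries, and its 116 CPM of Gstp1 was the highest Gstp1 level of the control_iron group. The control_iron replicates had the same order for the hepatocyte sum and for Gstp1. The high_iron replicates did not: replicate 2 held the highest hepatocyte sum and the lowest Gstp1 level, at 378 CPM.

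Of 15 tested Kupffer cell and macrophage genes, all 15 log2 fold changes were positive (median 1.66). By limma 3 rose (Clec4f, Csf1r and Marco), against 2 by edgeR and 11 by DESeq2. Of all genes tested, 0.832% rose by limma, while edgeR called 0.863% and DESeq2 3.27% in either direction. All 15 had an unadjusted p under 0.05 by limma, as had 12.1% of all 12980 genes tested. For 12 of the 15, every high_iron library lay above every control_iron library, as for 9.46% of all genes tested. Leaving out 1 library gave adjusted p by limma of 0.0019 to 0.18 for Clec4f, 0.0051 to 0.051 for Csf1r and 0.016 to 0.14 for Marco. The summed level of the 16 macrophage genes in the table was 541, 269 and 370.2 CPM in high_iron replicates 1 to 3, against 79.4, 185 and 98.7 CPM in control_iron replicates 1 to 3, without overlap. High_iron replicate 2 had the lowest macrophage sum of the high_iron group and also its lowest levels of Gstp1, at 378 CPM, and Mgst1, at 363 CPM, while Gstm1, at 411 CPM, was between the other two. High_iron replicate 1 had the highest macrophage sum of that group and its lowest level of Gstm1, at 335 CPM. No hepatocyte or macrophage gene of these lists was at 0 in any library. Whether RNA of hepatocytes or macrophages has a part in the changes of these genes was not tested. Epcam, which defines bile duct cells, another cell type known for pi class transferase, was at 0.0786 ± 0.136 CPM in high_iron and 0.0847 ± 0.109 CPM in control_iron libraries. Of 12 endothelial genes none passed by limma or edgeR and 1 did by DESeq2 (2 had an unadjusted p under 0.05 by limma), with a median log2 fold change of -0.18. Of 9 stellate cell genes and 7 erythroid genes none passed by limma, edgeR or DESeq2 (0 and 2 had an unadjusted p under 0.05 by limma), with medians of 0.10 and 0.0011. Of 7 cholangiocyte genes 1 was tested, Spp1, and it did not pass by any of these tools (log2 fold change 0.89, adjusted p = 0.55 by limma).

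**Figure D3:**
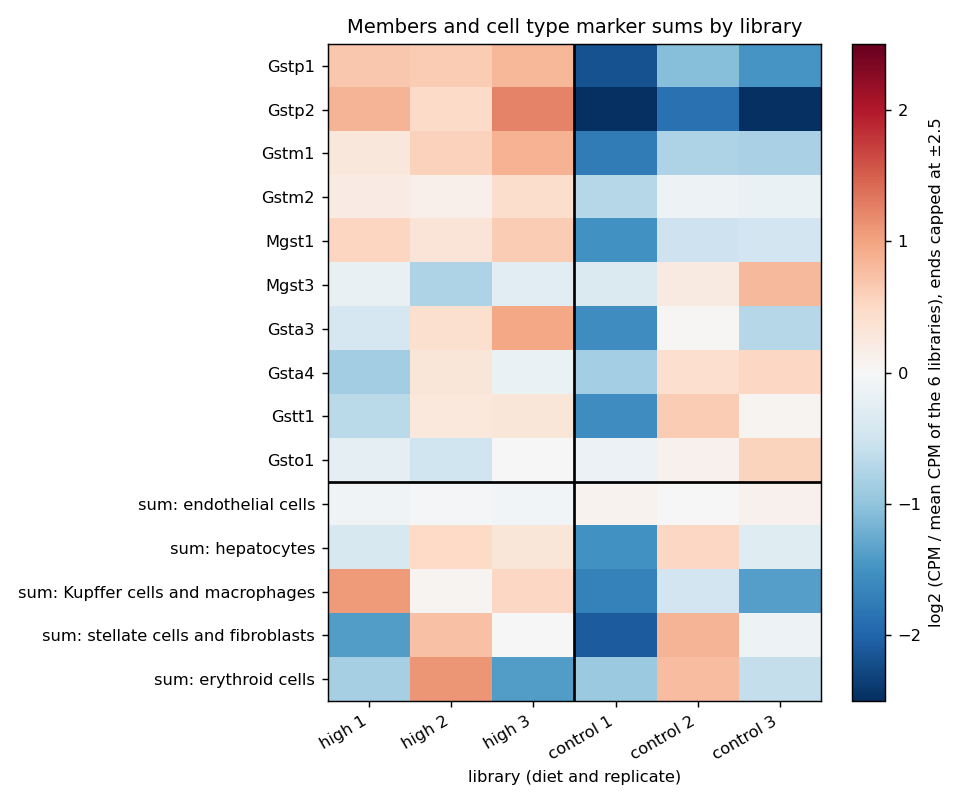
Level of each gene (upper rows) and summed level of each marker list (lower rows) per library, as log2 of the CPM over the mean of the 6 libraries, high_iron columns left of control_iron columns; red is above and blue below that mean, with colours capped at the ends of the scale. Gstp1, Gstp2, Gstm1, Gstm2 and Mgst1 and the macrophage sum separate the groups, while the hepatocyte sum, at 928 to 1729 CPM in high_iron and 427 to 1746 CPM in control_iron libraries, does not.

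None of the other tested genes of the family passed by limma. Of 22 other glutathione transferase and related membrane genes, 20 were in the table and 14 were tested. EdgeR called 0 of the 14 and DESeq2 1 (Alox5ap), against 0.863% and 3.27% of all genes tested. By limma 1 had an unadjusted p under 0.05, as had 12.1% of all genes tested. Of the 14, 9 were positive and 5 negative, and the median log2 fold change was 0.09. The highest by deposited RPKM were Gstk1, the kappa enzyme of mitochondria and peroxisomes, and Gstz1, which also serves tyrosine breakdown. Gstk1 was at 60.9 ± 8.12 CPM in high_iron and 73.2 ± 19.1 CPM in control_iron libraries (SD, n = 3 each), with a log2 fold change of -0.24 ± 0.20 (± SE). Gstz1 was at 52.0 ± 13.2 CPM in high_iron and 44.2 ± 21.8 CPM in control_iron libraries, with a log2 fold change of 0.30 ± 0.31 (± SE). The third pi gene, Gstp3, had a log2 fold change of 0.07 ± 0.28 (± SE), and those of Gstm3, Gstm4, Gstm5, Gstm6 and Gstm7 ran from -0.36 to 0.32. Alox5ap, which presents arachidonic acid to the leukotriene pathway and is also expressed in macrophages, had the highest value of the list, 1.42 ± 0.30 (± SE; adjusted p = 0.066 by limma and 0.0019 by DESeq2). Gstp3, these mu genes and Alox5ap are named after their values were seen.

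**Figure D4:**
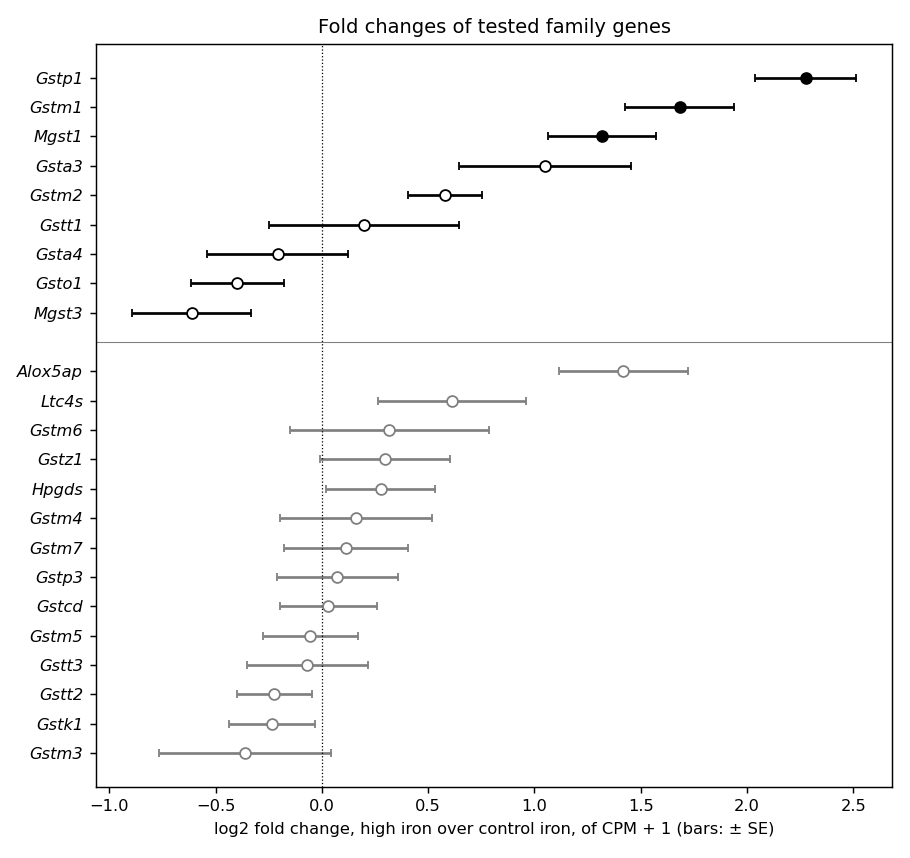
Log2 fold change of CPM + 1, high_iron over control_iron, with its SE, for the 9 tested members (upper block) and 14 other tested genes of the family (lower block, grey); filled points have an adjusted p under 0.05 by limma. Gstp1 at 2.28, Gstm1 at 1.68 and Mgst1 at 1.32 are the filled points, and the other family genes lie between -0.36 and 1.42.

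Genes that supply glutathione to these enzymes were listed beside them. Of 9 tested, 3 rose and none fell by limma, against 0.832% and 0.193% of all genes tested. The 3 were Gclc and Gclm, whose products together form glutamate-cysteine ligase, and Gsr, which reduces oxidised glutathione. Gclc was at 384 ± 77.9 CPM in high_iron and 84.3 ± 9.09 CPM in control_iron libraries (SD, n = 3 each). Gclm was at 369.9 ± 54.6 CPM in high_iron and 87.6 ± 11.7 CPM in control_iron libraries, and Gsr at 213 ± 17.4 CPM in high_iron and 81.1 ± 14.7 CPM in control_iron libraries. Their log2 fold changes were 2.16 ± 0.17, 2.06 ± 0.15 and 1.39 ± 0.16 in that order (± SE; adjusted p = 3.3e-04, 3.3e-04 and 0.0037 by limma), and all 3 passed under each of the 19 alternatives. Gss, the second enzyme of the synthesis, was at 16.98 ± 4.19 CPM in high_iron and 15.3 ± 1.34 CPM in control_iron libraries and did not pass (log2 fold change 0.11, adjusted p = 0.85 by limma).

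Of 11 tested genes for export and further processing of glutathione conjugates, Abcc4 rose and none fell by limma. Of all genes tested, 0.832% rose and 0.193% fell. Abcc4 encodes an efflux pump of the multidrug resistance protein family and was at 144 ± 8.85 CPM in high_iron and 82.3 ± 8.58 CPM in control_iron libraries, a log2 fold change of 0.80 ± 0.13 (± SE; adjusted p = 0.029 by limma). This call was lost in 6 of 19 alternatives, among them without high_iron replicate 1 (adjusted p = 0.098 by limma), 2 (0.13) or 3 (0.14) and without control_iron replicate 3 (0.065). The median over the 11 genes was 0.21 on the log2 scale, with 10 positive. Of 7 tested regulators of the antioxidant response, Mafg rose and none fell by limma, beside the same shares of all genes. Mafg encodes a small MAF protein that binds DNA together with NRF2; it was at 239 ± 6.58 CPM in high_iron and 157 ± 6.40 CPM in control_iron libraries (log2 fold change 0.60 ± 0.12, adjusted p = 0.045 by limma). This call sat at the threshold and was lost in 11 of 19 alternatives, among them edgeR (0.071) and each of the 6 fits without 1 library (0.055 to 0.26). Nfe2l2, which encodes NRF2, was at 257 ± 13.4 CPM in high_iron and 228 ± 7.84 CPM in control_iron libraries and did not pass (log2 fold change 0.17 ± 0.12, adjusted p = 0.58 by limma).

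By the distance between centred log2(CPM + 1) values over the 6 libraries, the genes most like Gstp1 among 9458 others with a mean of at least 5 CPM, outside the glutathione lists, were Nrxn2, Marco and Ftl1, with root mean square differences of 0.19, 0.23 and 0.23. The nearest to Gstm1 were Ftl1 at 0.14, Bin2 at 0.22 and Me1 at 0.23, and the nearest to Mgst1 were Alox12 at 0.15, Fga at 0.20 and Blvrb at 0.23. For Gsta4 they were Dhdh at 0.08, Pecr at 0.09 and Pkig at 0.14. Ftl1, the ferritin light chain, was at 689.9 ± 69.9 CPM in high_iron and 199.6 ± 63.9 CPM in control_iron libraries (SD, n = 3 each). Marco is also on the macrophage list and Fga on the hepatocyte list. Ftl1 has many pseudogenes, so its reads are uncertain. Likeness is a description of these 6 libraries.

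Promoter windows from RefSeq (GRCm38.p6), 250 bases before to 50 after a gene's start, were found for 9 of the 10 genes, and none for Gsta4. They were searched on both strands for the core of the antioxidant response element, TGACNNNGC, to which NRF2 binds with a small MAF partner, and for the form TGACTCAGC, which is a special case of the core. The core was present in windows of Gsta3 and Mgst1, 2 of the 9 genes, and in 3781 of the 27025 genes (13.99%) with a window of this length. Of the genes tested here, 9075 had such a window, and 1574 of them (17.3%) held the core. The form TGACTCAGC was in none of the 9, and in 0.503% of all genes. After the windows had been read, TGAGTCAGC was added, which is no case of the core. It occurred in Gstp1 and Gstp2 and in 0.481% of all genes. Because it was added after reading these same windows, this share cannot show whether its presence there is unusual. In Gsta3 the core reads TGACATTGC from -121. In Gstp1 the first base of TGAGTCAGC lies at -74 from the start and in Gstp2 at -89, on the strand of the gene. In Mgst1 the core is on the other strand, read as TGACCGTGC, with its first base on the gene's strand at -56. A match is a description of letters, and no binding was measured.

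The windows of Gstp1 (chr19:4037863-4038162, minus strand), Gstp2 (chr19:4042172-4042471, minus strand) and Mgst1 (chr6:138140277-138140576, plus strand, the first of 2 starts) are shown because they hold the matches in genes whose groups did not overlap. When aligned, the windows of Gstp1 and Gstp2 were identical at 74.4% of 317 columns, less than their coding sequences. Capitals mark the matches.
Gstp1: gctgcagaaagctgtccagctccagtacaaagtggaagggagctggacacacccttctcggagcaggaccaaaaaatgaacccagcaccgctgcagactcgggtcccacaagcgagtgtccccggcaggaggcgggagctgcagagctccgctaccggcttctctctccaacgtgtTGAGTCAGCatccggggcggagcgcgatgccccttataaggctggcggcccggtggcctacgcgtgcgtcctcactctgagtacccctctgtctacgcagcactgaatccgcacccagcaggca
Gstp2: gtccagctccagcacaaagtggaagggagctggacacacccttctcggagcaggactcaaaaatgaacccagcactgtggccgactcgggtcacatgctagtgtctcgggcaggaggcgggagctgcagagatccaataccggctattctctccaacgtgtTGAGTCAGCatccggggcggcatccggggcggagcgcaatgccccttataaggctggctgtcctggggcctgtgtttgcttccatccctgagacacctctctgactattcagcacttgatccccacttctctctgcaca
Mgst1: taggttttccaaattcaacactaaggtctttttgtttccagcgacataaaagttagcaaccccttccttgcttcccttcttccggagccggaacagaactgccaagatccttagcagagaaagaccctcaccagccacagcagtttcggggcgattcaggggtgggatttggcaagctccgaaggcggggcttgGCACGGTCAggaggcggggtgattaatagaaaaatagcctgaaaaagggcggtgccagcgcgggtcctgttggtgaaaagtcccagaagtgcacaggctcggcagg

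**Figure D5:**
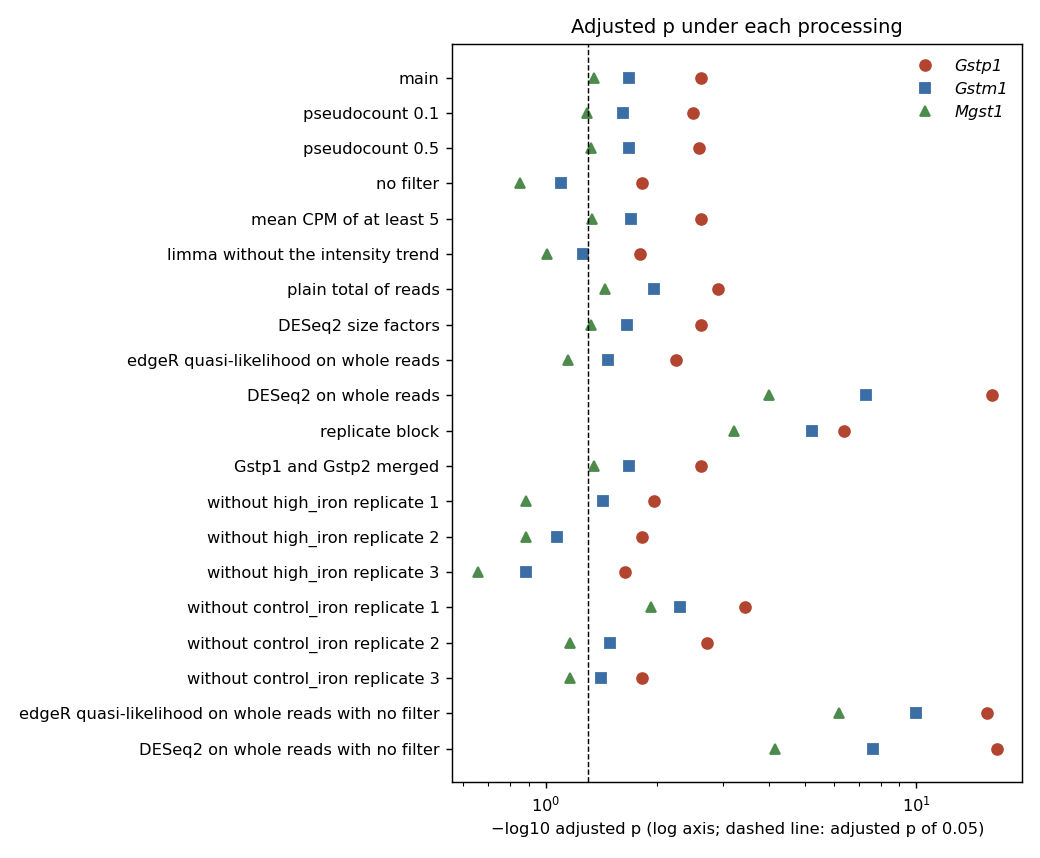
Adjusted p, as −log10 on a log axis, of Gstp1 (circles), Gstm1 (squares) and Mgst1 (triangles) under the main and 19 alternative settings; the dashed line marks 0.05 and points right of it pass. Gstp1 passes under all 19 alternatives, Gstm1 under 15 and Mgst1 under 10.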

How the data were processed

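Both deposited tables list 39179 genes by 6 libraries. Per the submitters' processing notes, STAR, HTSeq, edgeR and build mm10 were used, without versions or roles; the handling of reads with several matches is not stated there. A first table, by the authors, holds a normalized signal named CPM, whose 114253 values above 0 are whole multiples of each library's step within 0.001 read (100%), so reads could be recovered. The authors deposited RPKM values too, which equal CPM per kilobase of the deposited gene length.

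Limma 3.58.1 (R 4.3.3) was run on log2(CPM + 1) of the 12980 genes with at least 1 CPM in at least 3 libraries, with group as the term, an intensity trend, two-sided tests and Benjamini-Hochberg adjustment at a threshold of 0.05. EdgeR 4.0.16 and DESeq2 1.42.0 on recovered reads were alternatives. P-values measure the spread between these libraries. Counts of library pairs within a group differed beyond sampling noise (chi-square over its degrees of freedom, 18.2 to 89.1). The procedures were tested on simulated data. The SMARTer Ultra Low Input kit does not mark strand; no exon of a member overlaps an exon of another gene in GENCODE M21.

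Copies were searched with BLAST+ 2.17.0 (95% identity over 50% of the transcript), and sequences aligned with MAFFT 7.526. The members and lists were chosen with earlier results of these data known. All members are named. Of the other glutathione and regulator lists, genes that passed are named, or else the 2 with the highest mean RPKM. Other names were added: those marked in the text, and Gss and Nfe2l2, which did not pass. The cell type markers Stab1, Pecam1, Mcam, Alb and Epcam are examples that were not named by this rule.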

Additional observations from a re-analysis of the deposited data

How the results depend on the processing

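No alternative run changed the direction of Gstp1, Gstm1, Mgst1, Gstm2, Gsta3, Gsto1 or Mgst3. With 1 library left out, log2 fold changes ran from -0.52 to 0.0077 for Gsta4, positive without high_iron replicate 1, and from -0.35 to 0.60 for Gstt1, negative without control_iron replicate 1; neither passed the threshold in any fit. Gss ran from -0.0088, without high_iron replicate 3, to 0.32, without high_iron replicate 1. The count of genes changed, 133 in the main analysis, was 34 with no filter, 74 without the intensity trend, 424 with DESeq2 on whole reads, with or without the filter, and 603 with edgeR and no filter (both no-filter fits of reads were chosen after seeing the data); leaving out 1 library gave 27 to 183. The count of the 10 genes of interest, 3 in the main analysis, was 1 with no filter (Gstp1), 1 without the intensity trend (Gstp1) and 5 with edgeR and no filter, which also called Gsta3 (adjusted p = 8.1e-04) and Gstp2. Leaving out 1 library gave 1 to 3. Single genes were tallied for the 9 tested members and for Gclc, Gclm, Gsr, Gss, Abcc4, Mafg, Nfe2l2, Gstk1, Gstz1, Alox5ap, Clec4f, Csf1r and Marco. Over these genes, 363 values kept their direction and call, 44 lost the call, 6 gained it and 3 changed direction. Gstp2 and the other genes named in the text were not in this tally. With merged exon lengths, also chosen after seeing the data, the mean share of Gstp1 was 28.5% in high_iron and 15.2% in control_iron libraries, against 46.4% and 27.5% with the deposited lengths. The cause of these differences was not tested.

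The replicate numbers of both groups were also fitted as a replicate block, which gave 402 genes changed and added Gsta3 (adjusted p = 0.0066 by limma) to the 3 of these genes. Same-numbered libraries deviated together with r of 0.128, 0.320 and 0.0625 across genes. High_iron replicate 1 correlated best with control_iron replicate 3 (r = 0.198), and high_iron replicate 3 with control_iron replicate 2 (r = 0.131). Summed hepatocyte and stellate cell levels had the same order of replicates in both groups, while macrophage sums had the opposite order. Stellate cell sums were 223, 979 and 597 CPM in high_iron and 140, 1059 and 541 CPM in control_iron replicates 1 to 3. These values do not settle whether the numbers pair the libraries, and the main analysis did not pair them. Depth limits Gstp2, which had 1 to 4 reads in control_iron libraries.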
